A study of Mus musculus with 19 samples.

Results

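The 8 MHC class I genes measured here were *B2m*, *H2-K1*, *H2-D1*, *H2-T22*, *H2-T23*, *Tap1*, *Tapbp* and *Nlrc5*, chosen by name out of 28692 genes, and all 8 had UMIs (unique molecular identifiers, each 1 captured mRNA molecule). They were followed across thymocyte stages and genotypes by CITE-seq, which reads single-cell mRNA together with 111 surface antibodies, in 17 mice on 19 lanes of 3 experiments. Wild-type mice were C57BL/6 (5 mice), of which 3 were sorted for CD5+TCRβ+ cells and 2 were not sorted. The MHCI-/- mice lacked *B2m* (2 mice, sorted) and the MHCII-/- mice lacked *H2-Ab1* (2 mice, sorted). AND and OT-II mice (2 each, unsorted) carried a class II-restricted T cell receptor (TCR) transgene and are called CD4-fated, and F5 and OT-I mice (2 each, unsorted) carried a class I-restricted one and are called CD8-fated. AND and F5 mice were also Rag1-/-, so that no other TCR could form, AND mice came from a B10 stock, and all mice were between 4 and 8 weeks old.

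Class I molecules show peptides from inside the cell to CD8+ T cells. A heavy chain, such as the classical *H2-K1* and *H2-D1* or the non-classical *H2-T22* and *H2-T23* (the latter encodes Qa-1), pairs with β2-microglobulin, the product of *B2m*. *Tap1* encodes part of the transporter that carries peptides into the endoplasmic reticulum, *Tapbp* encodes tapasin, which holds the empty heavy chain at that transporter, and *Nlrc5* encodes a transactivator of class I genes. In the thymus, a double-positive (DP) thymocyte whose receptor binds a class I molecule becomes a CD8 single-positive (SP) cell, and one whose receptor binds a class II molecule becomes a CD4 SP cell.

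Of the 8 genes, 6 lie on chromosome 17 in GRCm38 (GENCODE vM21). *Tapbp* spans chr17:33915899-33929292 on the plus strand, *H2-K1* spans chr17:33996017-34000347 on the minus strand, and *Tap1* spans chr17:34187553-34197225 on the plus strand. *H2-D1* spans chr17:35262730-35267499 on the plus strand, and *H2-T23* (chr17:36029773-36032855) and *H2-T22* (chr17:36037128-36042747) are neighbours on the minus strand. *B2m* is at chr2:122147686-122153083 and *Nlrc5* at chr8:94434356-94527272, both on the plus strand. All 8 are annotated as protein coding.

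Promoters are shown because all 8 members rose from signaled DP-like to mature SP-like cells. RefSeq promoters (GRCm38.p6, 250 bases before to 50 after a transcription start, on the gene's strand) were matched for 7 of the 8 genes. Capitals mark the letters of 4 motifs on either strand: GGGGATTCCCC (a κB-type site), AANNGAAA (interferon response type), TGACG (the core of a CRE-like site) and CCAAT, with no match overlapping another in the sequences printed. *H2-K1* (chr17:34000298-34000597, minus strand) and *H2-D1* (chr17:35262844-35263143, plus strand) changed most among the heavy chains in the members, *B2m* (chr2:122147437-122147736, plus strand) encodes their partner, and *H2-T23* (chr17:36032652-36032951, minus strand) changed least.
H2-K1: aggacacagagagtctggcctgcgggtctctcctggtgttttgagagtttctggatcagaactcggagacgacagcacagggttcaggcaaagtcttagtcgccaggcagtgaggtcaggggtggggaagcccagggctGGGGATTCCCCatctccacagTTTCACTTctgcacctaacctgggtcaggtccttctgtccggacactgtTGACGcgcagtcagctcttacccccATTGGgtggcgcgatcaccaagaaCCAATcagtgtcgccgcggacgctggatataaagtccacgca
H2-D1: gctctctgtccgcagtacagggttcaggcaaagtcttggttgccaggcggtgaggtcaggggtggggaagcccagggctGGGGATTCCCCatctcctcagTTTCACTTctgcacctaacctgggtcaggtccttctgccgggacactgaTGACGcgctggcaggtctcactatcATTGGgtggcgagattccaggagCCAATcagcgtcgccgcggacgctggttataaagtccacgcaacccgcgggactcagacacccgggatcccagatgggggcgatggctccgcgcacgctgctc
B2m: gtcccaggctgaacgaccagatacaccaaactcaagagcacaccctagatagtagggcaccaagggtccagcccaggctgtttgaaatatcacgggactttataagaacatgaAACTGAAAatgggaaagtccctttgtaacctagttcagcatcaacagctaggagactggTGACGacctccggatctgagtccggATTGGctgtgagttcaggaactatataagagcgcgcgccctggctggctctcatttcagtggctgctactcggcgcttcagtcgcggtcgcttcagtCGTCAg
H2-T23: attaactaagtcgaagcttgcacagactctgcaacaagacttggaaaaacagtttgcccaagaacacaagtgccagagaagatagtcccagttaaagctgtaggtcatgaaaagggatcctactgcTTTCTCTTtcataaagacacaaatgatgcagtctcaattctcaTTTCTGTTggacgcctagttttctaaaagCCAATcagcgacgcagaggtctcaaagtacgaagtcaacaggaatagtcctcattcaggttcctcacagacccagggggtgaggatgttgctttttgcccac

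*H2-K1* and *H2-D1* shared a run of 47 bases that contains the κB-type letters, and they were the 2 members with a match to GGGGATTCCCC, which 0.0304% of 32851 promoters hold. The letters AANNGAAA were in 5 of the 7 member promoters and in 23.9% of all promoters, TGACG was in 5 and in 20.8%, and CCAAT was in 7 and in 37.4%. All 4 motifs together were in 2 member promoters and in 3 promoters of the whole table. The κB-type motif is the longest of the 4 and lies in the run that *H2-K1* and *H2-D1* share. Its rarity, and that of all 4 together, is therefore no measure of the members as a set. The motifs other than the κB type were together in 4 member promoters and in 1.59% of all promoters. These are matches of letters and not measured binding sites.

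After filtering, 72054 of 85389 barcodes were kept, and 69148 cells were clustered once 2906 predicted doublets had been removed. Clustering used neither the members nor any other H2 gene. A cluster took a name with "-like" only from preset markers (among them *Rag1* for quiescent DP, *Cd69*, *Cd5* and *Egr1* for signaled DP, *S1pr1* and *Klf2* for mature SP). At least 1 marker had to be among its 10 leading genes, with a mean marker score (z) above 0.5. Of 28 clusters 22 took a name, and cells of the others entered no class. Among the unnamed were clusters of 4921 cells, of 3095 cells (57.7% F5 replicate 2) and of 3077 cells (95.1% OT-II replicate 1). The second signaled DP-like cluster (45.4% wild-type replicate 5) had only *Egr1* there, at 0.511. The second mature SP-like cluster (45.0% OT-I replicate 2) had only *S1pr1*, at 0.618. Each lane held between 9893333 and 43303999 RNA UMIs, with a median of 1519 to 7259 UMIs per kept cell. At most 35 barcode sequences were shared by any 2 lanes. The last 4 lanes of the third experiment held wild-type replicate 5, OT-I replicate 2 and OT-II replicate 2. The medians were 1579 and 1519 UMIs per cell in the lanes of wild-type replicate 5, 2150 in OT-II replicate 2 and 3192.5 in OT-I replicate 2, against 2880 to 7259 in the other 15 lanes. Wild-type replicate 5 had high *B2m* and low *H2-T22* and *H2-T23*. Its cells also lay in other clusters of the same names. Between 96.0% and 99.7% of mature SP-like cells of wild-type replicates 1 to 4 were of 1 cluster, which held 0.228% of those of replicate 5. Of its quiescent and signaled DP-like cells 99.9% and 98.6% were of clusters that held at most 5.49% of the same class in replicates 1 to 4. Of mature SP-like cells 93.0% to 97.9% lay in the CD4 SP antibody gate in replicates 1 to 4, but 54.8% did in replicate 5, which also had only 7 CD4 SP-like and 9 CD8 SP-like cells. Levels are counts per 1000000 (CPM) of the UMIs summed over a mouse's cells of 1 class, with at least 20 cells. In such sums fewer expressing cells and less RNA per cell cannot be told apart.

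**Figure D1:**
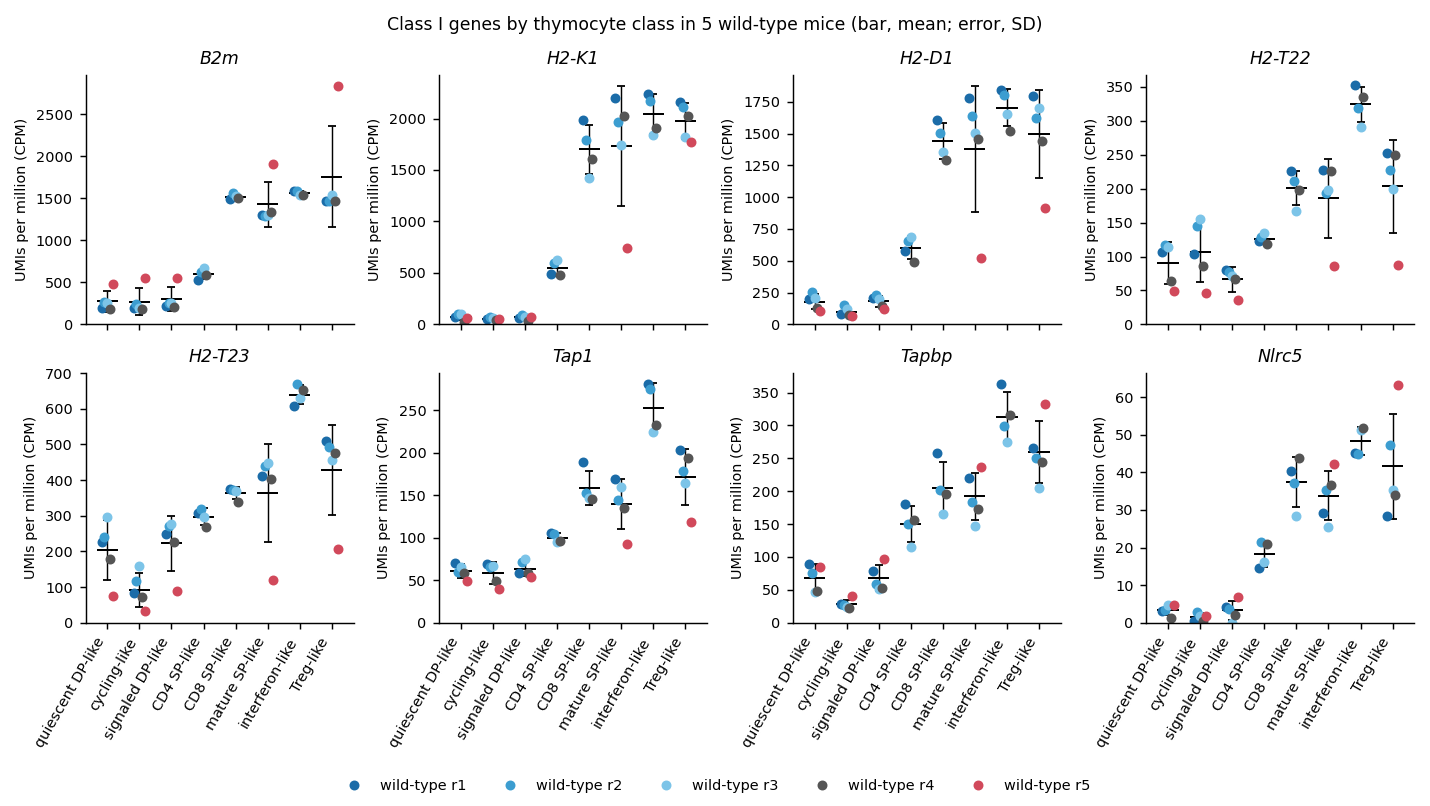
Level of each class I gene (CPM, linear axis from 0) in 8 cell classes, with 1 point per wild-type mouse, bars at the mean and error lines of 1 SD over 4 or 5 mice. Levels of *H2-K1* and *H2-D1* were low in all DP-like classes and rose through CD4 SP-like to mature SP-like cells, and wild-type r5 sits apart from the other 4 mice for several genes.

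The first step asked whether class I genes already changed when DP cells received selection signals. Between quiescent and signaled DP-like cells 2 of the 8 members were called among 13 mice, where 49.4% of 9418 tested genes were called (25.7% higher and 23.7% lower). *B2m* had a median of 250 CPM in quiescent DP-like cells of wild-type mice (178 to 483) and 259 CPM in signaled ones (206 to 557), ranges that overlap almost entirely. Over all 13 mice its log2 fold change was 0.25 ± 0.07 (SE, adjusted p = 0.00495, edgeR quasi-likelihood test with mouse as a block), and with wild-type mice alone it was 0.20 (adjusted p = 0.0501). *H2-T22* fell by 1.01 on the log2 scale (SE 0.23, adjusted p = 0.000505), whereas in wild-type mice alone the value was -0.26 (adjusted p = 0.0681). Among its quiescent levels those of the MHCII-/- mice, 799 and 845 CPM, lay above the 49.5 to 144 CPM of 11 further mice. *H2-K1* (0.22 ± 0.11, adjusted p = 0.104), *H2-D1* (0.13 ± 0.08, adjusted p = 0.161), *Tap1* (0.05 ± 0.08, adjusted p = 0.68), *Tapbp* (0.07 ± 0.08, adjusted p = 0.462) and *Nlrc5* (0.59 ± 0.34, adjusted p = 0.152) did not pass the test. *H2-T23* had a value of -0.06 ± 0.13 over all mice (adjusted p = 0.706) but was higher by 0.25 in wild-type mice alone (adjusted p = 0.0227). Without the 3 mice of the last lanes the same 2 members were called, where 53.2% of 9098 genes were, with *B2m* at 0.21 (adjusted p = 0.0108) and *H2-T22* at -1.30 (adjusted p = 1.23e-05).

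Genes of loading and peptide supply were read over the same step. Of 11 such genes 9 rose and 1 fell, against the 25.7% and 23.7% of all genes, with a median log2 fold change of 0.45 against 0.00 over all genes. *Psme2*, a proteasome activator subunit, rose by 0.71 ± 0.09 (adjusted p = 2.43e-08) and *Calr*, the chaperone calreticulin, by 0.67 ± 0.08 (adjusted p = 1.42e-08). *Tap2*, the partner of *Tap1*, fell by 0.20 (SE 0.07, adjusted p = 0.0226). Among other class I-like heavy chains 3 of 8 tested genes fell and none rose. *Mr1*, which presents to MAIT cells, fell by 2.01 (SE 0.17, adjusted p = 6.43e-12).

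From signaled DP-like to mature SP-like cells all 8 members rose, over 14 mice, where 24.6% of 9835 genes were called higher and 24.6% lower. The change was largest for *H2-K1* and smallest for *H2-T23*. In wild-type mice *H2-K1* had a median of 71.8 CPM in signaled DP-like cells (31.4 to 95.6) and of 1965 CPM in mature SP-like cells (739 to 2200), so the groups did not overlap. Its log2 fold change was 4.47 ± 0.22 (adjusted p = 3.55e-15), and the ratio was above 1 in 14 of 14 mice, between 4.45 and 64.3. *H2-D1* went from a median of 201 CPM (122 to 228) to 1502 CPM (524 to 1777), a log2 fold change of 2.88 ± 0.15 (adjusted p = 5.05e-15). Among wild-type mice both heavy chains were lowest in mature cells of replicate 5, still above every signaled DP-like value of wild-type mice.

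*B2m* rose with *H2-K1* and *H2-D1* but from a higher starting level than either within the same cells. Its median was 259 CPM in signaled DP-like cells (206 to 557) and 1298 CPM in mature SP-like cells (1293 to 1902) of wild-type mice. The log2 fold change was 2.04 ± 0.15 (adjusted p = 9.09e-12), with the ratio between 1.88 and 6.48 and above 1 in 14 of 14 mice. These 14 include MHCI-/- replicates 1 and 2, which lack *B2m*, with log2 ratios of 1.61 and 2.21 from remaining UMIs. Both mice also entered the fits over all mice for the other stage steps and for interferon-like cells. *Nlrc5* was near the detection limit in signaled DP-like cells, with a median of 3.76 CPM (0 to 6.76), and reached 35.4 CPM (25.6 to 42.2) in mature SP-like cells. It rose by 3.17 ± 0.21 (adjusted p = 9.45e-13), and in wild-type mice all mature values lay above all signaled ones. The peptide-loading genes changed less: *Tapbp* went from a median of 59.6 CPM (51.2 to 97.2) to 183 CPM (148 to 237), a log2 fold change of 1.75 ± 0.08 (adjusted p = 7.79e-16).

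*Tap1* rose from a median of 58.8 CPM (54.1 to 74.8) to 144 CPM (92.3 to 169), a log2 fold change of 1.32 ± 0.12 (adjusted p = 3.96e-10). For *H2-T22* the medians were 70.9 CPM (35.5 to 80.2) and 197 CPM (85.3 to 227), with 1.47 ± 0.12 (adjusted p = 5.52e-11). *H2-T23* moved from 248 CPM (87.9 to 278) to 410 CPM (120 to 448), and these ranges overlapped, with wild-type replicate 5 low in both classes. Within each mouse its ratio ran from 0.909 to 1.88, was above 1 in 11 of 14 mice, and the log2 fold change was 0.79 ± 0.10 (adjusted p = 1.89e-07). Without the 3 mice of the last lanes the values were 4.79 for *H2-K1*, 3.09 for *H2-D1*, 2.22 for *B2m* and 0.84 for *H2-T23*.

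**Figure D2:**
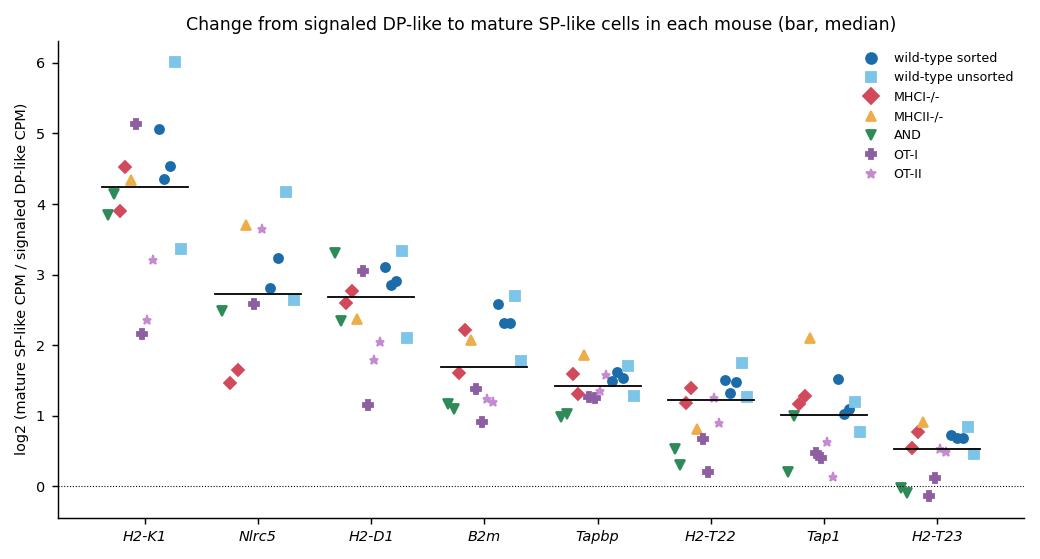
Log2 ratio of the level in mature SP-like cells to that in signaled DP-like cells, 1 point per mouse by genotype, with bars at the median. Points are left out where the signaled level was 0, as for *Nlrc5* in some mice. Every plotted ratio for *H2-K1*, *H2-D1*, *B2m*, *Tapbp*, *H2-T22*, *Tap1* and *Nlrc5* is above 0, and the AND mice and 1 OT-I mouse lie just below 0 for *H2-T23*.

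The rise came in steps. The CD4 SP-like class was 1 cluster, with *Cd40lg* and *Zbtb7b* among its 10 leading genes. Its mean marker score was nonetheless higher for signaled DP (1.64) than for CD4 SP (1.24). It held 99 and 148 cells of MHCII-/- replicates 1 and 2, which had 12 and 18 cells in the CD4 SP gate. The name therefore does not fix the lineage of these cells. Between signaled DP-like and CD4 SP-like cells (12 mice) all 8 members were called higher, where 20.3% of 9412 genes were, with *H2-K1* at 2.59 ± 0.19 (adjusted p = 4.66e-12), *Nlrc5* at 2.00 ± 0.22 (adjusted p = 2.37e-08) and *B2m* at 0.99 ± 0.11 (adjusted p = 2.26e-08). The call for *H2-T23* (0.21 ± 0.07, adjusted p = 0.0275) was lost without either MHCI-/- mouse or without wild-type replicate 1 or 2 (adjusted p = 0.0621 to 0.088). Between CD4 SP-like and mature SP-like cells (11 mice) all 8 were again higher, where 22% of 9857 genes were. *H2-K1* rose by a further 1.98 ± 0.08 (adjusted p = 3.91e-25) and *B2m* by 1.20 ± 0.07 (adjusted p = 3.3e-20), while *Nlrc5* rose by 0.85 ± 0.12 (adjusted p = 6.98e-08). No mouse of the last lanes had enough CD4 SP-like cells to enter these steps.

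A split by antibody alone gave rises too. Kept cells of any cluster that lay in the CD4 or CD8 SP antibody gate were divided within each mouse into 4 equal bins of the CD24 antibody, a surface protein that thymocytes lose as they mature. In wild-type mice *H2-K1* had a median of 641 CPM in the bin with the most CD24 (192 to 692) and 1916 CPM in the bin with the least (1236 to 2267). *H2-D1* went from 722 CPM (194 to 805) to 1506 CPM (815 to 1829), and *B2m* from 722 CPM (448 to 993) to 1520 CPM (1464 to 2797). For all 3 genes the lowest value of the bin with the least CD24 exceeded the highest value of the bin with the most. With cells of every genotype that allowed it, all 8 members were higher in the low-CD24 bin, where 22% of 10411 genes were called higher, from *H2-K1* at 1.97 (adjusted p = 8.49e-11) to *H2-T22* at 0.60 (adjusted p = 0.000166). Without the mice of the last lanes all 8 were again higher, where 20.8% of 10277 genes were, with *H2-K1* at 1.86 (adjusted p = 6.58e-09) and *H2-T22* at 0.54 (adjusted p = 0.000485). Over 15 steps between neighbouring bins of 5 mice the level was higher on the side with less CD24 in 15 for *B2m* and in 14 for *H2-K1* and *H2-D1*. It was so in 12 for *H2-T22*, *Tap1* and *Nlrc5*, in 10 for *H2-T23* and in 8 for *Tapbp*. The wild-type means of *H2-T23*, *Tap1* and *Tapbp* were higher in a middle bin (387, 168 and 230 CPM) than in the bin with the least CD24 (352, 160 and 211 CPM).

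Other genes of the pathway were less uniform over the same stage. Of 11 loading and peptide supply genes 7 rose and 2 fell between signaled DP-like and mature SP-like cells, where 24.6% of all genes rose and 24.6% fell, with a median log2 fold change of 0.51 against -0.02 over all genes. *Psme2* rose by 1.56 ± 0.11 (adjusted p = 1.82e-12) and *Psmb9*, an immunoproteasome subunit, by 1.48 ± 0.14 (adjusted p = 1.46e-09), whereas *Tap2* fell by 0.25 (SE 0.08, adjusted p = 0.0074). Of 8 tested other heavy chains 6 rose and 1 fell. *H2-Q7*, a Qa-2 gene, rose by 5.09 ± 0.27 (adjusted p = 7.45e-15), and *Mr1* fell by 1.85 (SE 0.17, adjusted p = 8.73e-10). Among 10 regulators 3 rose and 3 fell, and *Irf1*, an interferon response factor, rose by 1.83 ± 0.15 (adjusted p = 4.63e-11).

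In wild-type mice the order of levels over 13 classes was set in 1 fit with mouse as a block, and neighbours were compared. For *H2-K1* the B-like, interferon-like, Treg-like, mature SP-like, myeloid-like, CD8 SP-like and NKT-like classes formed a top group in which no neighbours differed. NKT-like cells (1238 CPM) were above negative selection-like cells (558 CPM), which did not differ from CD4 SP-like cells (548 CPM), and these were above double-negative (DN)-like cells (230 CPM) and then the cycling-like (56.6 CPM), signaled and quiescent DP-like classes. *H2-D1* followed a similar order, with cycling-like cells (99.4 CPM) lowest. *B2m* was first in myeloid-like cells, with 2148 CPM in wild-type replicate 4 and 5170 CPM in replicate 5, and did not differ there from NKT-like cells (2059 CPM, adjusted p = 0.0705). That class also carried erythrocyte markers, with *Hbb-bs* among its 10 leading genes and a sum of 5 such markers of 6789 CPM in 1 of the 2 mice and 81994 CPM in the other (6 myeloid markers summed to 9144 to 14629 CPM), and their part in its levels was not tested. *B2m* fell off below B-like cells and below CD4 SP-like cells. In the fit the interferon-like class was first for *H2-T22* (324 CPM), *H2-T23* (640 CPM), *Tap1* (253 CPM), *Tapbp* (313 CPM) and *Nlrc5* (48.3 CPM), although it did not differ from the next class in any of these 5 orders. For *Nlrc5* the plain means of B-like (74.2 CPM) and myeloid-like cells (51.6 CPM), each of 2 mice, were above it.

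Without wild-type replicate 5 the B-like, myeloid-like and DN-like classes had fewer than 2 mice, and 10 classes remained. The top group of *H2-K1* was then the interferon-like, mature SP-like, Treg-like, CD8 SP-like and NKT-like classes, again with no difference between neighbours, and *B2m* was first in NKT-like cells (1808 CPM). The interferon-like class now differed from the next class for *H2-T22* (adjusted p = 0.000125), *H2-T23* (adjusted p = 1.51e-05), *Tap1* (adjusted p = 1.43e-06) and *Tapbp* (adjusted p = 2.58e-05), each time Treg-like, but not for *Nlrc5* (adjusted p = 0.0992).

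*H2-K1* and *H2-D1* were each other's nearest gene over 52 sums of wild-type mice and classes, among 3056 genes with a mean of at least 50 CPM (Spearman's rho 0.953, a description over sums that share mice, libraries and depth). After members were passed over, *Xaf1* (0.917), *Smad7* (0.916) and *Irf1* (0.910) were nearest to *H2-K1*. *Irf7* (0.936), *Ctss* (0.910) and *Irf1* (0.904) were nearest to *H2-D1*, and *Trim30a* (0.862), *Lgals3bp* (0.860) and *Cyth4* (0.854) to *B2m*.

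CD8 SP cells held more class I mRNA than all CD4 SP cells of the same wild-type mice for 7 of the 8 members, where 19.4% of 9486 genes were called higher and 15.3% lower. Against mature CD4 SP cells alone only *B2m* was called higher. Cells of SP-like clusters were divided by their CD4 and CD8a antibody counts (at least 200 of 10000 antibody UMIs for one and under 100 for the other). Cells of unnamed clusters entered neither side. Among these was a cluster of 4921 cells whose highest mean marker score was for CD8 SP (0.317). The CD8 SP side may therefore lack less mature cells, and this was not tested. *B2m* was 1512, 1555, 1521, 1508 and 2660 CPM in CD8 SP cells of replicates 1 to 5 and 891, 980, 1088, 941 and 1843 CPM in CD4 SP cells. CD8 SP cells were higher in each mouse, although the CD4 SP value of replicate 5 exceeded the CD8 SP values of the other 4, and the log2 fold change was 0.73 ± 0.05 (adjusted p = 4.06e-12). *H2-K1* was 2033, 1814, 1434, 1624 and 995 CPM against 1285, 1304, 1381, 1164 and 784 CPM, with a log2 fold change of 0.51 ± 0.06 (adjusted p = 1.77e-07). The others rose by 0.66 ± 0.12 for *Nlrc5* (adjusted p = 3.85e-05), 0.44 ± 0.06 for *H2-D1* (adjusted p = 7.33e-07), 0.33 ± 0.07 for *H2-T22* (adjusted p = 0.000577), 0.31 ± 0.07 for *Tap1* (adjusted p = 0.00136) and 0.27 ± 0.06 for *Tapbp* (adjusted p = 0.00098). *H2-T23* did not pass the test (0.10 ± 0.06, adjusted p = 0.194). Without wild-type replicate 5 the same 7 members were called higher, where 19% of 9540 genes were, with *B2m* at 0.75, *H2-K1* at 0.53 and *H2-D1* at 0.48.

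The CD4 SP gate held cells of more than 1 class. In wild-type replicates 1 to 4 between 37.6% and 62.3% of its cells were CD4 SP-like, the class below mature SP-like cells for all 8 members, while 97.5% to 98.7% of the cells of the CD8 SP gate were CD8 SP-like. In mature CD4 SP cells alone (mature SP-like cells in the CD4 SP gate) *H2-K1* was 2195, 1965, 1750, 2022 and 789 CPM in replicates 1 to 5. In replicates 1 to 4 that was above the CD8 SP value of the same mouse, and in replicate 5 below it. Against these cells 14% of 9030 genes were called higher in CD8 SP cells and 13.7% lower, and 2 members were called, *B2m* higher in CD8 SP cells by 0.29 (adjusted p = 1.82e-05) and *H2-T23* lower (-0.19, adjusted p = 0.0147). *H2-K1* (-0.11, adjusted p = 0.157), *H2-D1* (-0.09, adjusted p = 0.129) and *H2-T22* (-0.03, adjusted p = 0.796) had the opposite sign and did not pass the test. Without replicate 5 *H2-K1* (-0.19, adjusted p = 3.03e-05), *H2-D1* (-0.13, adjusted p = 0.00384) and *H2-T23* (-0.20, adjusted p = 0.00116) were lower in CD8 SP cells, and *B2m* (0.24, adjusted p = 4.7e-07) and *Tapbp* (0.17, adjusted p = 0.0291) were higher, where 14.6% of 8713 genes were lower and 16.3% higher. This fit was added after values had been seen, and CD8 SP-like cells were not divided by stage.

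Of 11 loading and peptide supply genes 8 were higher in CD8 SP cells than in all CD4 SP cells and none lower, against the 19.4% and 15.3% of all genes. *Tapbpl*, a tapasin-like peptide editor, was higher by 1.13 ± 0.10 (adjusted p = 5.28e-10). Of 9 tested other heavy chains 4 were higher and 1 lower. *H2-Q6* (3.25 ± 0.25, adjusted p = 1.54e-11) and *H2-Q7* (1.96 ± 0.08, adjusted p = 1.13e-17), which can share reads as close copies, were higher, and *Cd1d1*, which presents lipids, was lower (-0.73 ± 0.11, adjusted p = 4.3e-06). These genes were not set against mature CD4 SP cells.

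Cells with an interferon program carried more class I mRNA than mature SP-like cells of the same 10 mice. All 8 members were called higher, where 4.89% of 9004 genes were, and no mouse of the last lanes entered. *Tap1* in wild-type replicates 1 to 4 was 281, 274, 224 and 233 CPM in interferon-like cells against 169, 144, 159 and 135 CPM in mature SP-like cells, with no overlap, and its log2 fold change was 0.81 ± 0.06 (adjusted p = 9.67e-18). *Nlrc5* (0.83 ± 0.11, adjusted p = 4.53e-09), *Tapbp* (0.76 ± 0.05, adjusted p = 1.87e-22), *H2-T22* (0.74 ± 0.05, adjusted p = 3.64e-19) and *H2-T23* (0.62 ± 0.04, adjusted p = 3.65e-23) rose by like amounts. *B2m* rose by 0.30 ± 0.03 (adjusted p = 9.97e-11). The classical heavy chains differed little: *H2-K1* by 0.10 ± 0.03 (adjusted p = 0.0434) and *H2-D1* by 0.11 ± 0.03 (adjusted p = 0.00995), and both calls were lost with DESeq2 (adjusted p = 0.224 and 0.083) and in wild-type mice alone (0.02 and 0.07). The call for *H2-K1* was also lost without AND replicate 1 or 2, MHCI-/- replicate 1, OT-II replicate 1 or wild-type replicate 2 (adjusted p = 0.0658 to 0.162). The sum of 6 myeloid markers had a median of 76.3 CPM (31.0 to 124) in interferon-like cells and 72.4 CPM (51.1 to 91.4) in mature SP-like cells, the sum of 5 B cell markers was at most 16.2 CPM in either, and their part in the result was not tested.

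MHCI-/- mice were first checked for the targeted gene. Over all cells *B2m* was 46.4 and 48.5 CPM in MHCI-/- replicates 1 and 2 and 404 to 1250 CPM in the other 15 mice, so the groups did not overlap. Each cell was thinned to 1000 UMIs to compare shares of cells with a *B2m* UMI. The share was 4.51% to 4.87% in MHCI-/- mice and 40.4% to 53.4% in sorted wild-type mice, with 31 and 21 shallower cells left out. Without thinning the share averaged 19.3% in MHCI-/- mice and was 76.2% to 82.7% in sorted wild-type mice. Which part of *B2m* the remaining UMIs cover, and whether they stem from these cells, was not tested, and the sources used here do not place the deletion relative to the sequenced 3′ ends.

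The remaining *B2m* UMIs still followed the stages. In MHCI-/- replicates 1 and 2 *B2m* was 26.1 and 16.5 CPM in signaled DP-like cells, 33.9 and 34.0 CPM in CD4 SP-like cells and 79.7 and 76.4 CPM in mature SP-like cells. Sorted wild-type mice had 216, 259 and 260 CPM, then 529, 620 and 668 CPM, then 1298, 1293 and 1296 CPM. The difference between the genotypes in the step from signaled DP-like to mature CD4 SP cells was -0.44 ± 0.25 on the log2 scale (adjusted p = 1, interaction term in edgeR, where 0.0324% of 9264 genes were called).

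*B2m* was the only member called in MHCI-/- against sorted wild-type mice (2 against 3) in both stages tested. It fell by 3.56 in signaled DP-like cells (SE 0.19, adjusted p = 1.41e-12), where 0.115% of 8687 genes were called. In mature CD4 SP cells it fell by 4.02 (SE 0.12, adjusted p = 1.05e-14), where 0.0906% of 8827 genes were called. No heavy chain was called lower. *H2-K1* in signaled DP-like cells was 139 and 99.7 CPM in MHCI-/- mice and 65.5, 95.6 and 74.8 CPM in sorted wild-type mice. The groups did not overlap, but 0.56 ± 0.18 did not pass the test (adjusted p = 0.871). *H2-D1* was 292 and 274 CPM against 207, 228 and 201 CPM, again without overlap (0.43 ± 0.11, adjusted p = 0.36). *Nlrc5* was 10.7 and 8.25 CPM against 4.18, 3.76 and 0 CPM, also without overlap, and did not pass the test (1.45 ± 0.56, adjusted p = 1). With *B2m* these were the 4 members with an unadjusted p under 0.05, and *Tap1*, *Tapbp*, *H2-T22* and *H2-T23* had values between 0.07 and 0.18 (adjusted p = 1 for each).

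In mature CD4 SP cells *H2-K1* was 2066 and 2302 CPM in MHCI-/- mice and 2195, 1965 and 1750 CPM in sorted wild-type mice, ranges that overlap (0.18 ± 0.10, adjusted p = 0.999). *H2-D1* was 1772 and 1876 CPM against 1780, 1644 and 1502 CPM, also overlapping (0.18 ± 0.09, adjusted p = 0.999). *Tap1* (0.05 ± 0.12), *Tapbp* (0.09 ± 0.12), *H2-T22* (0.07 ± 0.11), *H2-T23* (0.07 ± 0.10) and *Nlrc5* (-0.13 ± 0.18) were near 0, each with adjusted p = 0.999. With 2 against 3 mice, these values of mature CD4 SP cells do not show equal levels. CD4 SP-like cells were not tested between these genotypes. There *H2-K1* was 740 to 759 CPM in MHCI-/- mice and 491 to 628 CPM in sorted wild-type mice. *H2-D1* was 819 to 847 CPM against 575 to 689 CPM, also without overlap.

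**Figure D3:**
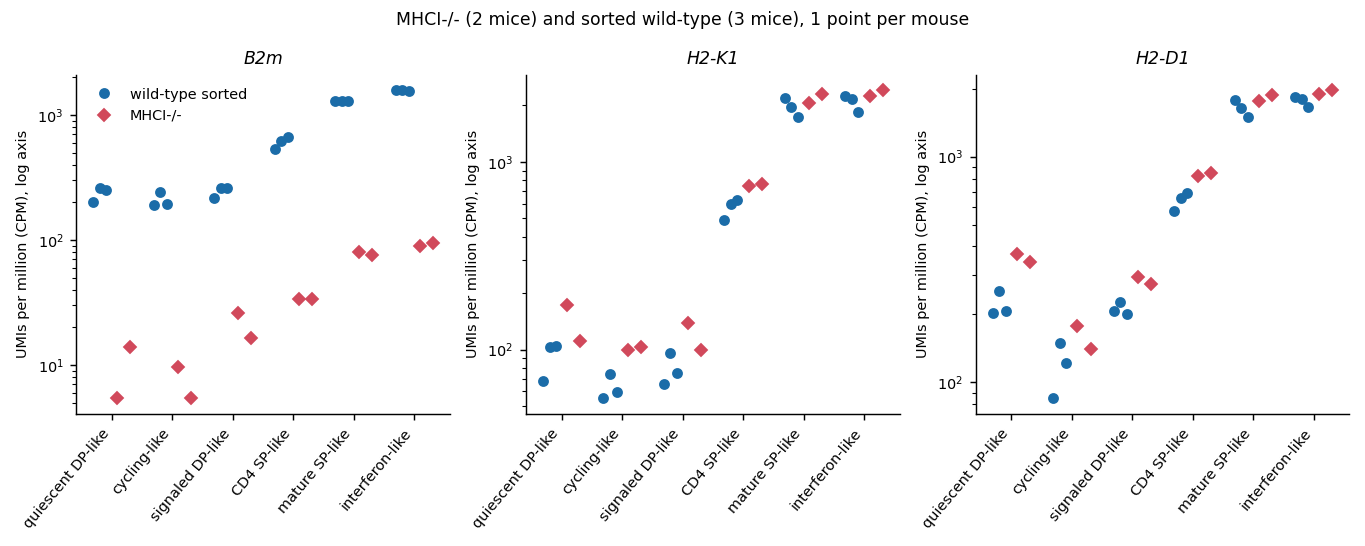
Levels of *B2m*, *H2-K1* and *H2-D1* (CPM, log axis) by class, with 1 point per mouse for 2 MHCI-/- mice and 3 sorted wild-type mice. All MHCI-/- points for *B2m* are below all wild-type points. For *H2-K1* and *H2-D1* the MHCI-/- points lie above the wild-type points in quiescent DP-like, signaled DP-like, CD4 SP-like and interferon-like cells. They overlap in mature SP-like cells. Both genes rise from signaled DP-like through CD4 SP-like to mature SP-like cells in both genotypes.

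The H-2Kb-SIINFEKL antibody, which binds the *H2-K1* product when it carries an ovalbumin peptide, was compared in the sorted mice. No label names ovalbumin, and the background of this antibody was not measured, so its counts are not shown to be class I at the surface. It gave 3.42 and 2.78 of 10000 antibody UMIs in MHCI-/- mice, 4.09, 3.61 and 4.63 in sorted wild-type mice and 5.26 and 5.33 in MHCII-/- mice. Over all cells the 3 genotypes did not overlap. In quiescent DP-like cells, however, it gave 6.35 and 5.66 in MHCI-/- mice and 6.08, 4.93 and 6.08 in sorted wild-type mice, which overlap and lie above the 2.74, 2.42 and 3.20 of mature SP-like wild-type cells, where *H2-K1* mRNA was higher. The mix of classes also differed between genotypes. Quiescent DP-like cells were 95 of 3236 and 108 of 3296 cells in MHCI-/- mice. In MHCII-/- mice they were 371 of 3247 and 541 of 4790. The sums over all cells were not adjusted for this mix, so mix and genotype cannot be told apart in them. Over all cells MHCI-/- against wild-type was -0.28 ± 0.10 (adjusted p = 0.159 over 111 antibodies, of which 5.41% were called), and MHCI-/- against MHCII-/- was -0.71 ± 0.11 (adjusted p = 0.00561, with 12.6% called). The second call was lost without MHCI-/- replicate 2 (-0.63) or MHCII-/- replicate 2 (-0.68). Without wild-type replicate 1, the only sorted mouse of the first experiment, the first difference was called (-0.31, adjusted p = 0.0248). In that fit 18.9% of the 111 antibodies were called.

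MHCII-/- mice had more mRNA of 3 heavy chains of the T region in quiescent DP-like and cycling-like cells. In quiescent DP-like cells *H2-T22* was 799 and 845 CPM in MHCII-/- replicates 1 and 2 and 107, 117 and 113 CPM in sorted wild-type mice. These groups did not overlap, and the log2 fold change was 2.92 ± 0.14 (adjusted p = 2.74e-19, 2 against 3 mice). *H2-T23* was 495 and 462 CPM against 226, 242 and 298 CPM, again without overlap (0.99 ± 0.13, adjusted p = 2.44e-06). This comparison was chosen after the *H2-T22* level of these cells had been seen. The 2 genes were the members called of 7 tested, where 0.523% of 7261 genes were called higher.

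The other members did not pass the test in those cells. *H2-K1* was 67.7 and 77.9 CPM in MHCII-/- mice and 68.0, 103 and 104 CPM in sorted wild-type mice (-0.18 ± 0.20, adjusted p = 0.79). *H2-D1* (0.05 ± 0.14, adjusted p = 0.928), *B2m* (0.11 ± 0.13, adjusted p = 0.818), *Tap1* (0.12 ± 0.19, adjusted p = 0.884) and *Tapbp* (-0.38 ± 0.21, adjusted p = 0.482) were likewise not called.

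*H2-T3*, a further T region heavy chain at chr17:36185572-36190287 on the minus strand, showed the widest contrast. In quiescent DP-like cells the MHCII-/- mice had 300.0 and 296 CPM, against at most 11.5 CPM among 11 further mice with enough cells (adjusted p = 1.26e-19 against sorted wild-type mice, which had 1, 0 and 2 UMIs). *H2-Ab1*, the disrupted gene, is at chr17:34257689-34269419, 1.768 Mb from *H2-T22*. The paper names no strain background for the MHCII-/- mice. Loss of *H2-Ab1* and inherited differences in DNA linked to it cannot be told apart here. *H2-T22* has a close copy, *H2-T10*, which was not analysed here, so how reads of the pair were shared is uncertain.

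The size of the difference changed with stage for *H2-T22* and *H2-T23*. In cycling-like cells MHCII-/- mice had 1149 and 1009.8 CPM of *H2-T22*, against 45.7 to 235 CPM in 15 further mice, and *H2-T3* was 196 and 189.9 CPM against 0 to 9.13 CPM. In signaled DP-like cells *H2-T22* was 104 and 109 CPM in MHCII-/- mice against 80.2, 76.8 and 70.9 CPM in sorted wild-type mice (0.47 ± 0.13, adjusted p = 0.138), where 0.622% of 8687 genes were called. No member passed the test there by edgeR or by DESeq2, and 2 had an unadjusted p under 0.05 with each. The change from quiescent to signaled cells differed between MHCII-/- and sorted wild-type mice by -2.47 ± 0.16 for *H2-T22* (adjusted p = 7.98e-29) and by -1.41 ± 0.12 for *H2-T23* (adjusted p = 3.47e-20), where 0.748% of 8963 genes were called. *H2-T3* stayed higher in signaled DP-like cells, with 11.9 and 10.1 CPM in MHCII-/- mice, 0 CPM in the 3 sorted wild-type mice (adjusted p = 0.000631) and at most 0.845 CPM in any further mouse with enough cells, and the test of the difference in its change was not passed (-0.65 ± 0.99, adjusted p = 0.92).

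*H2-T23* went the other way in later cells. In the CD8 SP gate it was 269 and 257 CPM in MHCII-/- mice and 389, 374 and 369 CPM in sorted wild-type mice, without overlap. It was lower by 0.52 on the log2 scale (SE 0.10, adjusted p = 0.0169), the 1 member called where 0.39% of 8983 genes were, and the call was lost without either MHCII-/- mouse (adjusted p = 0.313 and 0.867). In signaled DP-like cells *H2-T23* was higher in MHCI-/- than in MHCII-/- mice (298 and 272 against 224 and 182 CPM, 0.53 ± 0.13, adjusted p = 0.0419), where 0.76% of 8687 genes were called. That call was lost without any 1 of the 4 mice (adjusted p = 0.0522 to 0.848). The log2 fold change of *B2m* there was -3.64 ± 0.19 (adjusted p = 5.68e-13).

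**Figure D4:**
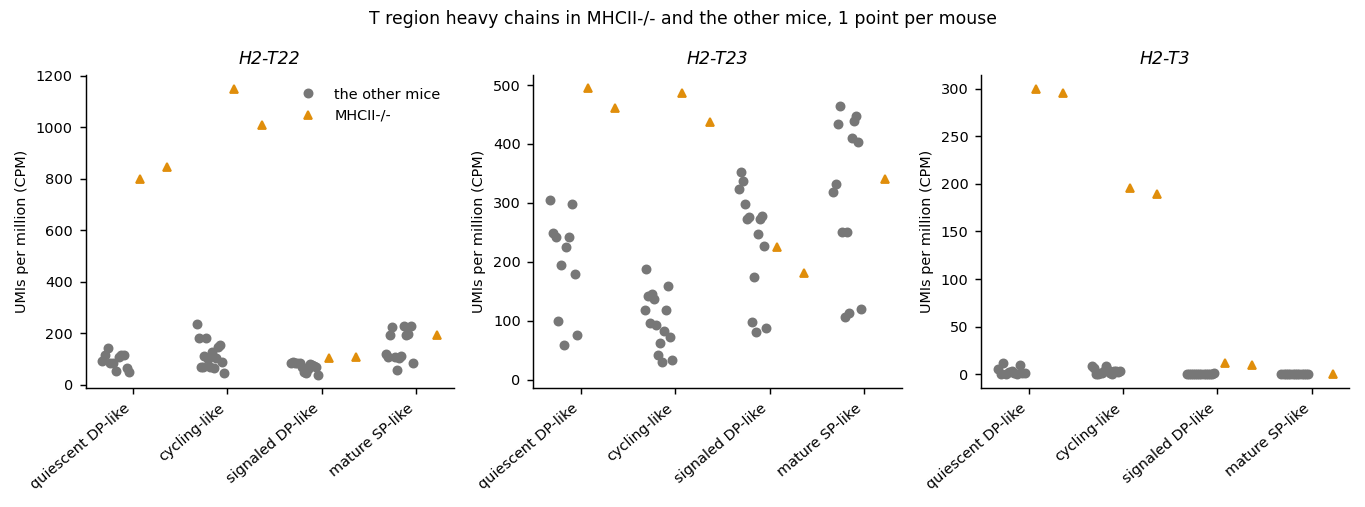
Levels of *H2-T22*, *H2-T23* and *H2-T3* (CPM, linear axis) in 4 classes, with triangles for the 2 MHCII-/- mice and circles for the other mice that had at least 20 cells. MHCII-/- triangles stand above all circles in quiescent DP-like and cycling-like cells for the 3 genes and lie near or within the circles in mature SP-like cells, which had 1 MHCII-/- mouse.

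Class I levels of TCR transgenic mice lay below those of wild-type mice in SP cells when experiment was a covariate and the last lanes were set apart as a batch. That division was made after values had been seen, and the labels give only experiment and lane numbers. With experiment alone as covariate 1 member was called lower in the CD8 SP gate, *H2-K1* (-1.68, adjusted p = 0.0301), where 0.412% of 8976 genes were. In that fit no member was called in mature CD4 SP cells by edgeR, where 0.188% of 9059 genes were called lower and 6 members had an unadjusted p under 0.05. With the last lanes apart, all 8 members were lower in the CD8 SP gate (OT-I and F5 against wild-type, 4 against 5), where 1.52% of 8976 genes were. *H2-K1* was 631 and 551 CPM in OT-I mice, 422 and 494 CPM in F5 mice and 2033, 1814, 1434, 1624 and 995 CPM in wild-type replicates 1 to 5. No transgenic value reached a wild-type one, and *H2-K1* was lower by 1.66 on the log2 scale (SE 0.21, adjusted p = 0.00265). The gate drew on different clusters in different mice. In F5 replicates 1 and 2, 99.7% and 98.0% of its cells were of a CD8 SP-like cluster that held no gated cell of any wild-type mouse. In OT-I replicate 1 and wild-type replicates 1 to 4, 97.5% to 99.4% were of another CD8 SP-like cluster, and in OT-I replicate 2 and wild-type replicate 5, 98.2% and 96.0% were of a mature SP-like one. Without the F5 mice (2 against 5) all 8 members were again called lower, where 1.62% of 9255 genes were, with *H2-K1* at -1.099 (adjusted p = 3.99e-08), *Nlrc5* at -1.04 (adjusted p = 0.00112) and *B2m* at -0.61 (adjusted p = 0.000384). In that fit the first 2 experiments held only wild-type mice. The difference therefore rested on OT-I replicate 1 against wild-type replicate 4 and OT-I replicate 2 against wild-type replicate 5. With all mice *Nlrc5* fell most, by 1.77 (SE 0.33, adjusted p = 0.0174), with 24.2 and 28.8 CPM in OT-I, 4.81 and 3.84 CPM in F5 and 28.1 to 71.3 CPM in wild-type mice, and 1 OT-I mouse overlapped the wild-type range.

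*B2m* in the CD8 SP gate was 507 and 551 CPM in F5 mice, 944 and 1782 CPM in OT-I mice and 1508 to 2660 CPM in wild-type mice. It was lower by 1.20 (SE 0.20, adjusted p = 0.00949), and OT-I replicate 2, a mouse of the last lanes, fell within the wild-type range. The other 5 members were lower by between 0.87 (*H2-T23*, SE 0.12, adjusted p = 0.00441) and 1.35 (*H2-T22*, SE 0.17, adjusted p = 0.00245). The call for *Tapbp* (-0.91, adjusted p = 0.0182) was lost without F5 replicate 1 or 2 or wild-type replicate 1 or 2 (adjusted p = 0.0544 to 0.0869). In mature CD4 SP cells (AND and OT-II against wild-type, 4 against 5) 5 members were lower, where 1.37% of 9059 genes were. These were *Nlrc5* (-1.08 ± 0.22, adjusted p = 0.0175), *H2-K1* (-0.89 ± 0.18, adjusted p = 0.0146), *Tap1* (-0.85 ± 0.13, adjusted p = 0.00192), *B2m* (-0.79 ± 0.14, adjusted p = 0.00577) and *H2-D1* (-0.67 ± 0.15, adjusted p = 0.0298).

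The differences were not alike in all batches. In the first experiment *H2-K1* of mature CD4 SP cells was 1041 CPM in AND replicate 1 and 2195 CPM in wild-type replicate 1. In the second it was 976 CPM in AND replicate 2 and 1965 and 1750 CPM in wild-type replicates 2 and 3. In the first lanes of the third it was 777 CPM in OT-II replicate 1 and 2022 CPM in wild-type replicate 4, but in the last lanes it was 780 CPM in OT-II replicate 2 and 789 CPM in wild-type replicate 5. *H2-D1* showed the same, with 805 against 1452 CPM in the first lanes and 574 against 570 CPM in the last.

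For CD8 SP cells *H2-K1* was lower in OT-I mice in both sets of lanes, with 631 against 1624 CPM and 551 against 995 CPM. Without the last-lane mice all 8 members were called lower in the CD8 SP gate, from *H2-T23* (-0.97) to *Nlrc5* (-1.99), where 1.54% of 8761 genes were, and *H2-T22* (-1.01, adjusted p = 7.13e-06) and *H2-T23* (-0.53, adjusted p = 0.00233) joined the called members in mature CD4 SP cells, where 2.53% of 9218 genes were lower. In the first 2 experiments the wild-type mice were sorted and the transgenic mice were not, so sort and genotype cannot be told apart there. Leaving out AND replicate 1, AND replicate 2 or wild-type replicate 1 left 1 called member in mature CD4 SP cells, wild-type replicate 2 left 2, OT-II replicate 1 or wild-type replicate 4 left 3, and wild-type replicate 3 left 4. Without OT-II replicate 2 or wild-type replicate 5, both of the last lanes, 7 were called, and DESeq2 called 4.

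**Figure D5:**
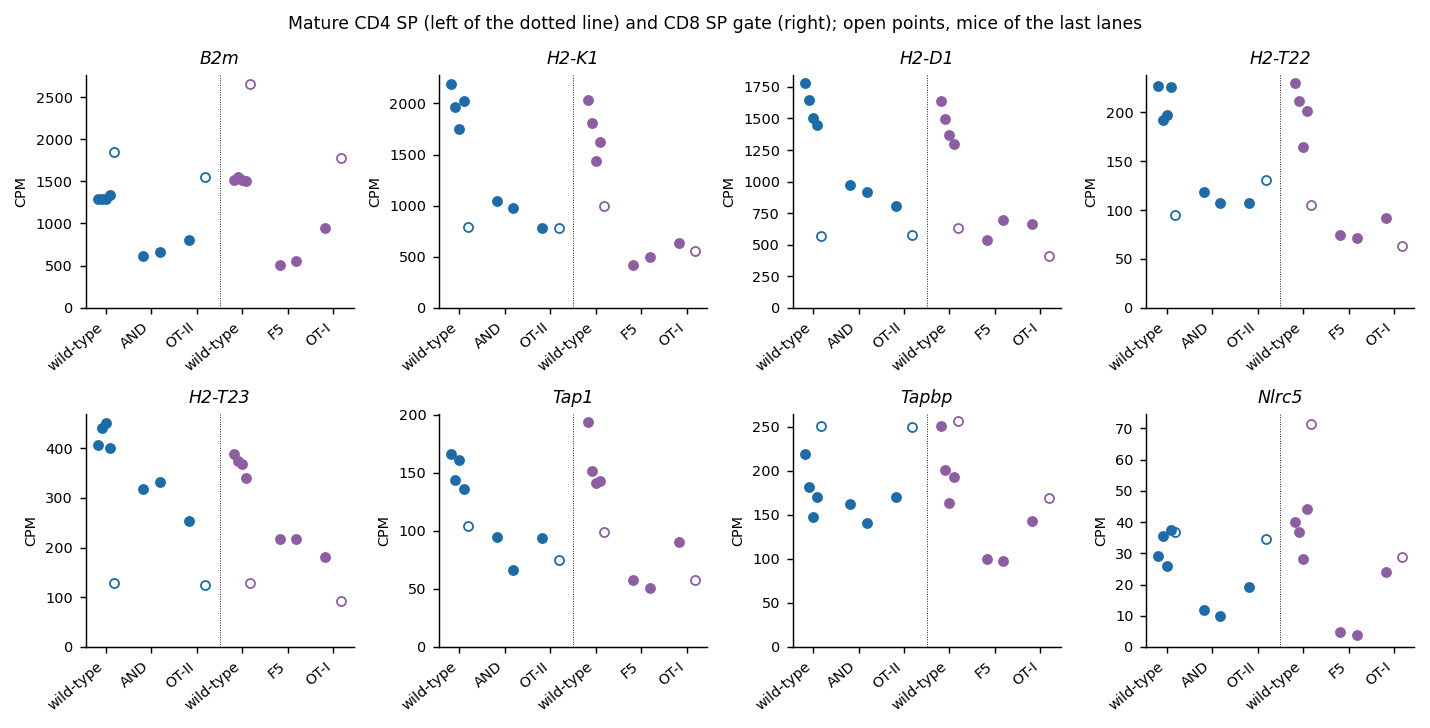
Level of each class I gene (CPM, linear axis from 0) in mature CD4 SP cells of wild-type, AND and OT-II mice, left of the dotted line, and in the CD8 SP gate of wild-type, F5 and OT-I mice, right of it. Each point is a mouse and open points are mice of the last lanes. Filled transgenic points lie below filled wild-type points for all genes but *Tapbp* in CD4 SP cells.

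CD4-fated and CD8-fated transgenic mice were not distinguished in signaled DP-like cells (4 against 3 mice). No member of 7 tested was called by edgeR or by DESeq2, and 1 had an unadjusted p under 0.05 with each, where 0.223% of 4042 genes were called. That was *H2-K1*, at 72.0 and 55.5 CPM in AND, 147 and 66.1 CPM in OT-II, 23.9 and 82.8 CPM in OT-I and 0 CPM in F5 replicate 2 (1.34 ± 0.56, adjusted p = 0.999). The ranges overlapped. The sum of 5 erythrocyte markers in these cells reached 63694 CPM in 1 of the 4 CD4-fated mice and at most 24.3 CPM in the 3 CD8-fated mice, and its part in the values was not tested. F5 replicate 2 gave 21 such cells and F5 replicate 1 gave 8, too few to enter. An unnamed cluster of 3095 cells, 57.7% of them from F5 replicate 2, scored highest for signaled DP (0.717). No preset marker was among its 10 leading genes, so its cells did not count here. The low F5 numbers therefore do not show a lack of such cells.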

How the data were processed

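Thymocytes of 17 mice were profiled on 19 lanes. Per the submitters' processing notes Cell Ranger 3.1.0 and the mm10 build were used, and the authors deposited raw UMI counts per gene and antibody in each cell. Cells with at most 15% mitochondrial UMIs, at least 200 genes, 1000 to 10000 antibody UMIs and at least 70 antibodies detected were kept, and predicted doublets were removed. Clusters came from 2000 variable genes, 30 principal components and 20 neighbors (leidenalg 0.10.2, resolution 1), with 859 genes left out of the features, among them the members and all other H2 genes.

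Counts were summed per mouse and class (at least 20 cells) and compared by edgeR 4.0.16 under R 4.3.3 (quasi-likelihood test, TMM, filterByExpr), with Benjamini-Hochberg adjustment over all genes tested and a threshold of 0.05. Mouse was a block between classes of the same mice. Antibody counts, summed per mouse over all kept cells, were tested in the same way over 111 antibodies, with no filter. DESeq2 1.42.0, other filters and left-out mice were alternatives. Scripts were tested on simulated data.

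The members and gene lists were chosen with earlier results of these data known, and the comparisons of TCR transgenic and of MHCII-/- with wild-type mice, the CD4 SP-like steps, the CD24 bins, the batch of the last lanes and mature CD4 SP cells as a second reference for CD8 SP cells were added after values had been seen. Named were the members, list genes called in the stage comparisons, and the 3 genes most like *B2m*, *H2-K1* and *H2-D1* (Spearman's rho, mean of at least 50 CPM, members passed over). *H2-T3* in MHCII-/- mice was named after its values were seen. The values of 1 gene of the regulator list are not reported here.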

Additional observations from a re-analysis of the deposited data

Results flagged for a closer look

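Of 56 groups of wild-type values tested for a distant sample, 13 held one, and in each it was replicate 5, a mouse of the last lanes. Chance alone marks about 1 in 20 groups, and the groups share mice. *B2m* was high in replicate 5, with 483 CPM in quiescent DP-like, 557 CPM in signaled DP-like and 1902 CPM in mature SP-like cells, 1843 CPM in the CD4 SP gate and 2660 CPM in the CD8 SP gate.

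Heavy chains were low in the same mouse. *H2-D1* was 524 CPM in mature SP-like cells. *H2-T22* was 35.5 CPM in signaled DP-like cells, 85.3 CPM in mature SP-like cells and 94.2 CPM in the CD4 SP gate. *H2-T23* was 87.9 CPM in signaled DP-like cells, 120.4 CPM in mature SP-like cells, and 128 CPM in both the CD4 SP and the CD8 SP gate. The cause was not tested.

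The change from quiescent to signaled DP-like cells differed between MHCII-/- and sorted wild-type mice by a test of the difference itself, by -2.47 on the log2 scale for *H2-T22* and by -1.41 for *H2-T23*.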

How the results depend on the processing

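All 8 members kept their call from signaled DP-like to mature SP-like cells under each alternative run, as they did from CD4 SP-like to mature SP-like cells. For interferon-like cells 6 to 8 were called and 7 to 8 with a mouse left out, and for CD4 SP-like against signaled DP-like cells 7 to 8. With wild-type mice alone, 1 member in place of 2 was called between signaled and quiescent DP-like cells, and *H2-T23* turned to 0.25. For MHCI-/- against MHCII-/- mice 1 member in place of 2 was called with DESeq2, with library size in place of TMM and with the replicate block, and 1 to 2 when a mouse was left out. Against mature CD4 SP cells 2 members in place of 7 were called in CD8 SP cells, and *H2-K1*, *H2-D1*, *H2-T23* and *H2-T22* turned to -0.11, -0.093, -0.19 and -0.030, and without the last lanes to -0.19, -0.13, -0.20 and -0.035. With doublets kept, 1 member in place of 0 was called for CD4-fated against CD8-fated mice and for MHCII-/- against wild-type signaled cells. In TCR transgenic mature CD4 SP cells leaving out a mouse gave 1 to 7 called members in place of 5 and the replicate block and experiment alone each gave 0 (4 and 6 at an unadjusted p under 0.05). In the CD8 SP gate the replicate block gave 0 (6 unadjusted) and experiment alone 1 in place of 8, and leaving out a mouse gave 7 to 8. *H2-T23* in the CD8 SP gate of MHCII-/- mice gave 0 to 1. The H-2Kb-SIINFEKL difference between MHCI-/- and wild-type mice ran from -0.37 to -0.20 with a mouse left out. It passed the test without wild-type replicate 1 (-0.31), where 18.9% of antibodies were called. The mean share of MHCI-/- cells with a *B2m* UMI was 4.69% at 1000 UMIs, 9.30% at 2000 and 19.3% without thinning. The cause of these changes was not tested. Replicate numbers did not pair the sorted mice (correlations of -0.05 to 0.02 between same-numbered mice), and same-numbered transgenic and wild-type mice were not always of 1 experiment. With doublets kept the mature SP-like name went to 1 cluster of 2532 cells, 45.6% of them from OT-I replicate 2. No values of that alternative are listed here for comparisons that use this class. Antibody gates were not run for signaled against quiescent cells.

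Counts over all genes moved more. They were 7839 with antibody gates against 4838 (mature against signaled), 1982 with DESeq2 against 3300 (CD8 against CD4 SP) and 443 in wild-type mice against 739 (interferon-like). For MHCI-/- against wild-type they were 6 with DESeq2 and 23 without the filter against 10 in signaled DP-like cells, and 25 without the filter and 23 with the block against 8 in mature CD4 SP cells. For MHCI-/- against MHCII-/- mice they were 25 and 112 against 66 with DESeq2 and no filter, and for CD4-fated against CD8-fated mice 2 and 34 against 9, with 14 from at least 50 cells, 23 with doublets, 20 with the block and 0 without the family covariate. For TCR transgenic mice the block gave 1 against 187 and 4 against 176, and no filter gave 504 and 543. In the mature CD4 SP cells of these mice DESeq2 gave 110, and leaving out the last lanes 342, and experiment alone gave 20 there and 47 in CD8 SP cells. For MHCII-/- mice DESeq2 gave 16 against 54 in signaled and 18 against 68 in quiescent DP-like cells, no filter gave 104 and 106, and in the CD8 SP gate no filter gave 142 and the block 111 against 35. Library size in place of TMM shifted the median of all genes by -0.34 from signaled to mature cells, with 1293 genes higher and 5149 lower against 2418 and 2420, and by -0.10 between CD8 and CD4 SP cells, with 1273 and 2241 against 1844 and 1456. The CD4 SP-like steps went to 1237 higher and 3409 lower from 1915 and 1931 (median -0.16) and to 1218 and 4540 from 2173 and 2326 (median -0.21), and interferon-like cells to 513 and 189 from 440 and 299. With a mouse left out the counts ran from 4 to 15 and 19 to 84 (MHCI-/- against wild-type and MHCII-/- signaled cells), 1 to 19 (CD4-fated), 86 to 373 and 82 to 194 (TCR transgenic CD4 and CD8 SP) and 20 to 65, 20 to 71 and 17 to 92 (MHCII-/- signaled, CD8 SP and quiescent cells).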
